A study of Mus musculus with 2 samples.

Results

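The annexins examined were 10 genes, Anxa1, Anxa2, Anxa3, Anxa4, Anxa5, Anxa6, Anxa7, Anxa8, Anxa10, and Anxa13, out of 18193 genes that had at least 1 probe set naming no other gene. They were read from all 22 probe sets whose only gene symbol in the platform annotation was one of these names. The family was chosen by measured values of these same arrays, on which Anxa8 was among the genes that differed most, so its differences are given as a description and without a test. The study compared gut epithelial cells of Lrrc19 KO mice with those of WT mice, and the comparison asks how loss of this epithelial receptor changes transcription in the gut. One pool was made from 5 Lrrc19 KO mice and the other from 5 WT mice. In each pool there were 2 males and 3 females, all 6 weeks old, on the C57BL/6 background and kept specific pathogen free. How the KO line was made and which exons it lacks were not given in the sources used here, and the labels name the intestine without saying which part was taken. The cells of both genotypes were shaken off the tissue in EDTA, and magnetic beads were then used to remove CD4 and CD8 T cells, macrophages, dendritic cells, and B cells.

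Annexins are proteins that bind acidic membrane lipids such as phosphatidylserine when calcium rises. They share a conserved core that makes the membrane contact and differ in the tail before it, which binds partners such as S100 proteins. In the gut they are known from the brush border and from apical transport (Anxa2, Anxa4, Anxa13), from the repair of injured membranes and mucosa (Anxa1, Anxa2, Anxa5), and from stratified or gastric epithelium (Anxa8, Anxa10).

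Because each genotype had 1 array, the spread between mice is unknown, and every value compares these 2 pools with no replicate check. Values are intensities in arbitrary units on a linear scale. An intensity of 127, the median over all probe sets that were not controls, was taken as the floor, and a gene was counted as higher or lower only when it reached the floor in at least 1 pool and differed at least 2-fold. The log2 difference is always Lrrc19 KO minus WT. Over all 12518 genes at the floor, its median was 0.01 and its robust SD 0.27. Levels of different probe sets cannot be set against each other, so the annexins are not ranked by level. A summed intensity of a marker list covers all its members on the array, also those under the floor. It is set only against the same sum in the other pool.

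Lrrc19 was at 212 in the KO pool, against 905 in the WT pool, on its brighter probe set, and at 20.9 in KO, against 391 in WT, on the other. All 8 markers of epithelium in general were above the floor in both pools, and none of them differed 2-fold. The 7 smooth muscle markers were also above it, with a summed intensity of 73203 in the KO pool and 55800 in the WT pool and a median log2 difference of 0.40. The 18 hybridization spike-ins, transcripts added to the labeled samples, all gave more signal in KO, with a median log2 difference of 0.50. The scaling between the arrays was not given in the sources used here, so the sign of a log2 difference between 0 and this offset is not settled. Centring the arrays on 8 housekeeping genes instead shifted every difference up, by 0.12. The sign of a difference below 0 and smaller in size than 0.12 is thus not settled either.

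Anxa8 was the single annexin counted as higher in the Lrrc19 KO pool, and no annexin was counted as lower. Of the 10 genes, 9 reached the floor, 8 of these differed by less than 2-fold, and Anxa10 stayed under the floor. Among all genes at the floor, 0.559% were higher and 0.407% lower in the Lrrc19 KO pool by the same threshold. The median log2 difference of the 9 annexins was 0.08, and their range was from -0.43 (Anxa5) to 2.42 (Anxa8). The log2 differences of 6 of the 9 were smaller in size than the robust SD of all genes, and those of Anxa3, Anxa5, and Anxa8 were larger. By probe set, 14 of the 22 reached the floor. Of these, 3 were at least 2-fold higher, the pair for Anxa8 and a dim one for Anxa7, and none was lower. For comparison, 0.953% of all 23611 probe sets at the floor were higher by 2-fold or more and 0.457% were lower.

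**Figure D1:**
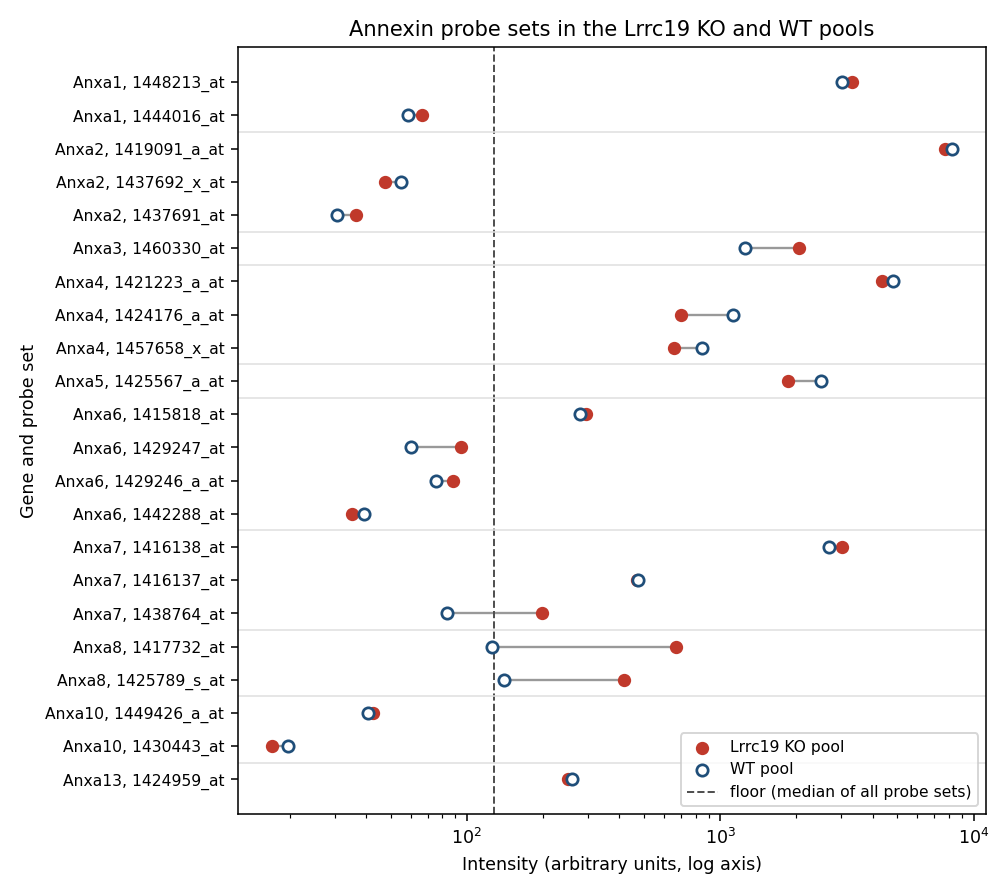
Intensity of each annexin probe set (log axis, arbitrary units) for the pool of Lrrc19 KO mice (filled) and that of WT mice (open), each from a single array and so without error bars. A dashed line marks the floor of 127, and the widest gaps are those of Anxa8 (670.4 in KO and 125 in WT, 416 and 140) and the third probe set of Anxa7 (198 in KO and 83.2 in WT).

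Anxa8, an annexin of stratified epithelia that is known in human cells from late endosomes, was read by 2 probe sets. The brighter one gave 670.4 in the Lrrc19 KO pool and 125 in the WT pool. Its WT value lay just under the floor. With the floor put in place of that value, this probe set was at least 5.27-fold higher in KO as deposited. The other gave 416 in KO and 140 in WT, both above the floor, a 2.97-fold difference. By its design this one can bind more than a single transcript. The 2 probe sets thus gave the same direction but not the same size, with log2 differences of 2.42 and 1.57. The annexin nearest to the threshold from below was Anxa3, at 1.64-fold.

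The bases before the start of Anxa8 are shown because this gene carries the difference, with those of Anxa2, an annexin well above the floor whose pools differed by 1.07-fold, for comparison. RefSeq promoter entries (GRCm38.p6) were found for 7 of the 10 annexins, and the 250 bases upstream of the annotated start were searched on both strands for 5 motifs: the TATA box (TATAAA), the CCAAT box (CCAAT), the AP-1 site (TGANTCA), the GC box (GGGCGG), and the half-site of the glucocorticoid receptor (AGAACA). The Anxa8 sequence lies at chr14:34085729-34085978 on the plus strand, and that of Anxa2 at chr9:69453433-69453682 on the plus strand. Capitals mark motif matches.
Anxa8: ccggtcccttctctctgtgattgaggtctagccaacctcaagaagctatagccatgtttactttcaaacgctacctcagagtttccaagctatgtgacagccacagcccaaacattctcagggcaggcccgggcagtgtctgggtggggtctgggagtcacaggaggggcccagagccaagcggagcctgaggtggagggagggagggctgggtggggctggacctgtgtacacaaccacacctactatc
Anxa2: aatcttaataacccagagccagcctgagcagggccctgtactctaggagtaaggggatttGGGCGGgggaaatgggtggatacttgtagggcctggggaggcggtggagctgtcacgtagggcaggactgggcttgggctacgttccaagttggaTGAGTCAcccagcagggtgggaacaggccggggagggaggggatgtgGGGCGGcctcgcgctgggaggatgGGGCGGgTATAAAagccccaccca

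None of the 5 motifs was found in the Anxa8 window, which says only that these letters are not there. The Anxa2 window held 3 GC boxes, an AP-1 site, and a TATA box that ends 12 bases before the start, and no match overlapped another. Among 32851 promoter windows of this length, 12.4% held the TATA box, 33.8% the CCAAT box, 6.75% the AP-1 site, 32.7% the GC box, and 16.1% the receptor half-site. GC content was 58% for Anxa8 and 62.4% for Anxa2, against a median of 52.4% for all windows. These matches are a description of the sequence, not of binding.

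Genes beside Anxa8 were compared too. Of the 3 measured genes on each side of it in the RefSeq order, 3 reached the floor and none differed 2-fold. A630023A22Rik, the nearest on one side, was at 446 in KO and 398 in WT, and Npy4r, a neuropeptide Y receptor and the nearest on the other, did not reach the floor (112 in KO and 117 in WT). None of the 10 annexins lies on the chromosome that carries Lrrc19.

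**Figure D2:**
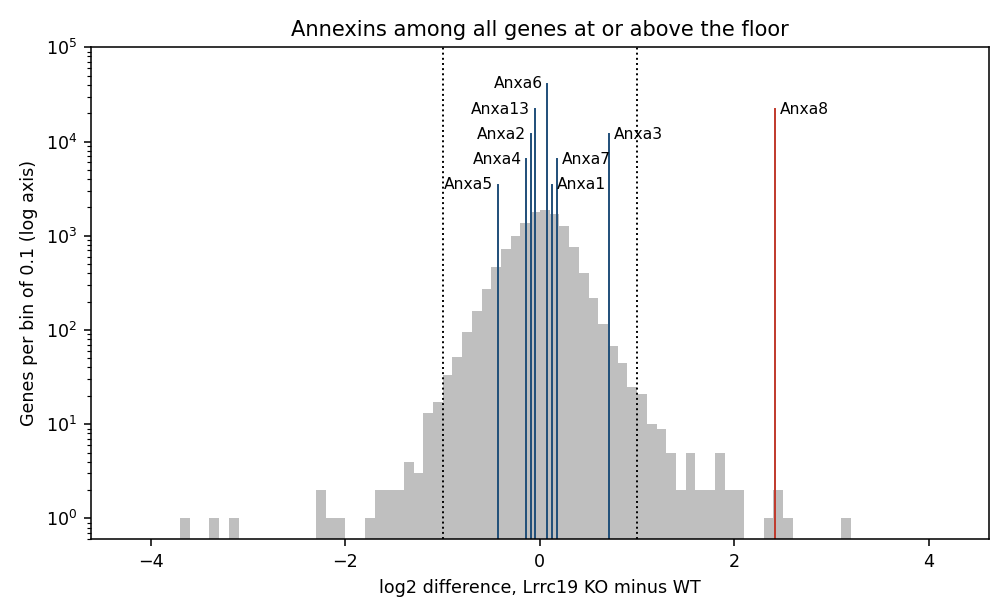
Distribution of the log2 difference (Lrrc19 KO minus WT, 1 array per genotype) over the 12518 genes at or above the floor, as genes per bin of 0.1 on a log axis, with the 9 annexins at the floor marked by lines whose heights only separate the labels. Anxa8 lies at 2.42, past the dotted line of 2-fold, Anxa3 at 0.71, and the others between -0.43 and 0.17.

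Several marker lists bear on tissues that are known to express Anxa8. Of 20 stratified squamous markers on the array, 11 reached the floor and none differed 2-fold. The summed intensity of all 20 was 3686 in the KO pool and 3491 in the WT pool. The defining basal keratins Krt5 (77.6 in KO and 72.9 in WT) and Krt14 (78.6 and 65.3) were under the floor in both. The cornified envelope protein Ivl was at 154 in KO and, under the floor, at 100.4 in WT, and the basal transcription factor Trp63 at 128 in KO and 157 in WT. Other squamous markers were above the floor in both pools, among them Pkp1 (616 in KO and 626 in WT), Sprr1a (585 and 526), and Sfn (400 and 336). The part of squamous cells in the Anxa8 difference was not tested. Urothelial markers reached the floor in 4 of 6 cases and none differed 2-fold, with Upk1b, a plaque protein of the bladder surface, at 290.2 in KO and 183 in WT, and the keratin Krt7 at 1760 in KO and 2411 in WT. Their summed intensity was 2583 in KO and 3079 in WT. Krt7 made the largest part of this sum and had the only log2 difference below 0 on the list.

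Colon markers differed among themselves. Of 9 on the array, all reached the floor, 4 were higher in the Lrrc19 KO pool, and none was lower. Over all genes at the floor, 0.559% were higher and 0.407% lower. The colon markers had a median log2 difference of 0.97 and a summed intensity of 65008 in KO and 57238 in WT. Those that rose were the proton-potassium pump subunit Atp12a (4760 in KO and 531 in WT), the posterior homeobox gene Hoxd13 (255 and 42.4, the WT value under the floor, at least 2.003-fold), the homeobox gene Hoxb13 (738 and 259), and the water channel Aqp8 (4873 and 2019). The other 5 were under 2-fold. Among them, the chloride exchanger Slc26a3 was at 8844 in KO and 4525 in WT, whereas the carbonic anhydrase Car1 (18909 in KO and 22420 in WT) and the mucin Muc2 (18071 and 20977) had log2 differences below 0, of -0.25 and -0.22, and Hoxd10 was at 199 in KO and 189 in WT. The ileum markers ran the other way, with 1 of 5 at the floor lower, the transcription factor Osr2 (215 in KO and 472 in WT), none higher, and a summed intensity of 2974 in KO and 4153 in WT. The counts of colon and ileum markers were made with the arrays as deposited and not repeated under other scalings. Centring on the spike-ins, which shifts every log2 difference by -0.50, would put Aqp8 (1.27 as deposited) under 2-fold. It would also put the ileum marker Fabp6 (-0.74 as deposited) past 2-fold lower. The part of gut region in the Anxa8 difference was not tested. In pooled cells, fewer cells of a type and less RNA per cell cannot be told apart.

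Anxa3, which is abundant in human neutrophils, had the second largest difference of the family. Its 1 probe set gave 2046 in the Lrrc19 KO pool and 1251 in the WT pool, a log2 difference of 0.71 that did not reach 2-fold. Of all genes at the floor, 1.57% had a difference at least as high. Neutrophil markers were near the floor or under it, with 1 of 6 reaching it (Camp, 131 in KO and 136 in WT) and a summed intensity of 456 in KO and 458 in WT. S100a8 (41.2 in KO and 42.6 in WT) and S100a9 (28.6 and 19.7), the most abundant neutrophil transcripts, were under it in both pools.

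Anxa1 is secreted and, through the formyl peptide receptor Fpr2, limits leukocyte entry and promotes mucosal healing, and glucocorticoids are known to induce it. It was at 3309 in KO and 3032 in WT, a log2 difference of 0.13. Its second probe set did not reach the floor (66.3 in KO and 58.6 in WT). Fpr2 was close to the floor, at 224 in KO and 198 in WT. The list of receptors and glucocorticoid response genes had 12 of 14 members on the array, all at the floor. Of these, 1 was higher and none was lower, against 0.559% and 0.407% of all genes at the floor. The median log2 difference was 0.24. The transcription factor Zbtb16, at 461 in KO and 111 in WT, was at least 3.62-fold higher on its brightest probe set, which can match several transcripts. Its log2 difference was 2.05 on this probe set, 1.32 without probe sets of that kind, and 1.17 as the mean of all its probe sets, so it passed 2-fold each time but its size depended on the probe set. The other responders were under 2-fold, with Klf9 at 5483 in KO and 3680 in WT, Sgk1 at 5104 and 3708, Fkbp5 at 1996 and 1741, and Tsc22d3, a classical glucocorticoid target, at 863 and 869.9. The receptor gene Nr3c1 was at 865 in KO and 1124 in WT.

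Anxa2 forms a complex with S100a10 at the cell surface, where it brings plasminogen together with its activator. The brightest of its 3 probe sets gave 7699 in KO and 8208 in WT, a log2 difference of -0.09, and can match several transcripts. The others were under the floor (47.6 in KO and 54.9 in WT, 36.5 and 30.6). S100a10 was at 4968 in KO and 5439 in WT, a log2 difference of -0.13. Both differences were below 0, and centring on the spike-ins would lower them further. Centring on housekeeping genes put Anxa2 at 0.03, so its sign is not settled. The S100a10 difference was only slightly larger in size than that shift of 0.12. The scaffold protein Ahnak, which binds this complex, was at 4039 in KO and 2621 in WT (0.62), and S100a6, another calcium sensor that binds annexins, at 11097 and 9631 (0.20). None of the 4 partners on the array differed 2-fold. Plasminogen activation had 4 of 7 measured genes at the floor and none past 2-fold, with the activator Plat at 271 in KO and 192 in WT and the receptor Plgrkt at 1633 and 2153.

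Anxa4 and Anxa5 had log2 differences below 0 on every probe set. Anxa4, an annexin of epithelia, was read by 3, all above the floor and all able to match several transcripts. They gave 4353 in KO and 4792 in WT (-0.14), 697 and 1125 (-0.69), and 659 and 847 (-0.36). All 3 were below 0, the brightest gave the smallest difference, and the gap between the smallest and the largest was wider than the robust SD of all genes. Anxa5, the annexin used to stain dying cells for exposed phosphatidylserine, had 1 probe set, at 1851 in KO and 2490 in WT. Its log2 difference of -0.43 was the lowest of the family by gene, and 7.61% of all genes at the floor were at least as low. Genes that expose or recognize phosphatidylserine reached the floor in 13 of 16 cases, and none passed 2-fold (median 0.04). The largest differences were those of the flippase Atp11a (1699 in KO and 1246 in WT) and the scramblase Ano6 (1122 in KO and 886 in WT).

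Anxa6, whose core is duplicated and which is prominent in muscle and on endosomes, was at 295 in KO and 279.9 in WT on the 1 of its 4 probe sets that reached the floor, a log2 difference of 0.08. The other 3 lay between 35.1 and 95.1, under the floor, with log2 differences from -0.16 to 0.66. The smooth muscle markers had log2 differences from 0.26 (Acta2) to 0.65 (Des). All of these were under 2-fold, and those of Acta2, Myl9, Tagln, and Actg2, like the list median, were smaller than the spike-in offset.

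Anxa7, or synexin, first known for fusing secretory granules, was read by 3 probe sets that did not agree. The brightest gave 3037 in KO and 2697 in WT (0.17), and the next 470.1 and 473 (-0.01). The third gave 198 in KO and 83.2 in WT. Its WT value was under the floor, and with the floor in its place the difference was at least 1.55-fold, which is no longer past 2-fold. The difference was thus seen on the dimmest of the 3 probe sets and not on the others.

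Anxa13, an intestinal annexin anchored by a fatty acid and involved in apical sorting, was at 251 in KO and 259.8 in WT, a log2 difference of -0.05. Other genes of apical membrane traffic reached the floor in 12 of 12 cases and none differed 2-fold (median 0.04), with Ezr, which ties the brush border to actin, at 5505 in KO and 4291 in WT, and Rab8a at 1083 and 1381. Anxa10, an annexin of gastric epithelium, was under the floor on both probe sets (42.8 in KO and 40.8 in WT, 17.0 and 19.7), so no fold is given. Of 9 gastric markers, 3 reached the floor and none differed 2-fold. Gkn1 (65.5 in KO and 51.5 in WT) and Gkn2 (69.2 and 57.9), secreted by stomach surface cells, were under it in both pools, whereas the surface mucous genes Tff1 (820 in KO and 833 in WT) and Muc5ac (810 and 690) were above it.

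Genes that work with annexins in membranes and lipid signaling were measured too. Membrane repair and calcium-dependent membrane binding had 23 of 24 genes at the floor, none past 2-fold, and a median log2 difference of 0.02. Syt7, a calcium sensor of lysosome exocytosis, was at 781 in KO and 1051 in WT, and Ehd2, which stabilizes caveolae, at 550.3 and 415. Phospholipase A2 enzymes, which Anxa1 and Anxa5 inhibit in vitro, and the prostaglandin and leukotriene genes downstream had 10 of 13 at the floor and none past 2-fold (median 0.14). The inducible cyclooxygenase Ptgs2 had the largest difference, at 275 in KO and 150 in WT (0.87), followed by Pla2g12a, at 127 and 182 (-0.52). Across the 7 lists of partners and pathways, 1 of 78 genes at the floor was higher in the Lrrc19 KO pool and none was lower. Over all genes at the floor, the shares were 0.559% higher and 0.407% lower. Lists of this size would thus hold few such genes in any case, and their low counts are not particular to them.

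**Figure D3:**
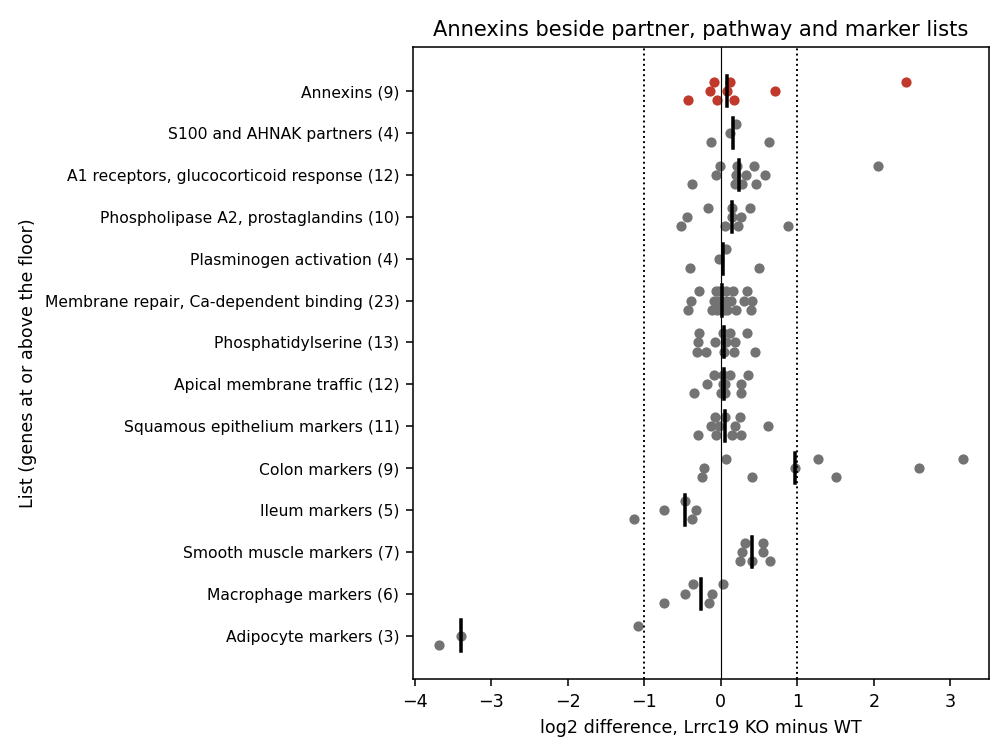
log2 difference (Lrrc19 KO minus WT) of each gene at or above the floor in the annexins, 7 partner and pathway lists, and 6 marker lists (points, moved up or down only to separate them), with the list median as a bar, the number of genes in parentheses, and 1 array per genotype. Partner and pathway genes lie between the dotted lines of 2-fold except Zbtb16 (2.05), and the colon markers reach 3.16.

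Other cell types that express annexins were measured as well. Macrophage markers reached the floor in 6 of 7 cases, with none past 2-fold, a summed intensity of 5302 in KO and 6561 in WT, and a median log2 difference of -0.26. Their log2 differences ran from -0.74 (Adgre1) to 0.03 (Mrc1). Fibroblast markers were all at the floor and had a median of 0.08, and endothelial markers one of -0.20, with none past 2-fold. Markers of T cells, B and plasma cells, mesothelium, and proximal small intestine had none past 2-fold either, with medians of 0.13, 0.10, 0.05, and -0.06. Some markers of other cell types were well above the floor in both pools. Examples are Jchain of plasma cells (8701 in KO and 9030 in WT), Col3a1 of fibroblasts (8416 and 7965), and C1qa of macrophages (1467 and 1886). The annexin values thus cannot be taken as those of epithelium alone. Of the 4 adipocyte markers on the array, 3 reached the floor and all 3 were lower in KO, against 0.407% of all genes at the floor. The summed intensity of all 4 was 986 in KO and 4663 in WT. The 3 lower markers were Adipoq (24.4 in KO, under the floor, and 313 in WT, at least 2.46-fold), Car3 (278 and 2941), and Fabp4 (648 and 1372). The part of these cell types in the differences of Anxa5 and the other broadly expressed annexins was not tested.

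The sign of 5 of the 9 annexin differences changed with the scaling of the arrays, and the call of Anxa8 did not. Giving the arrays a common median shifted every log2 difference by -0.08, centring them on 8 housekeeping genes by 0.12, and centring them on the spike-ins by -0.50. Anxa8 was between 1.92 and 2.54 over 4 other scalings, and Anxa3 between 0.21 and 0.83. Anxa4 was between -0.64 and -0.02, and Anxa5 between -0.93 and -0.31, so these 4 genes kept their sign. The 5 that changed sign under at least 1 of these scalings were Anxa1, Anxa2, Anxa6, Anxa7, and Anxa13.

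**Figure D4:**
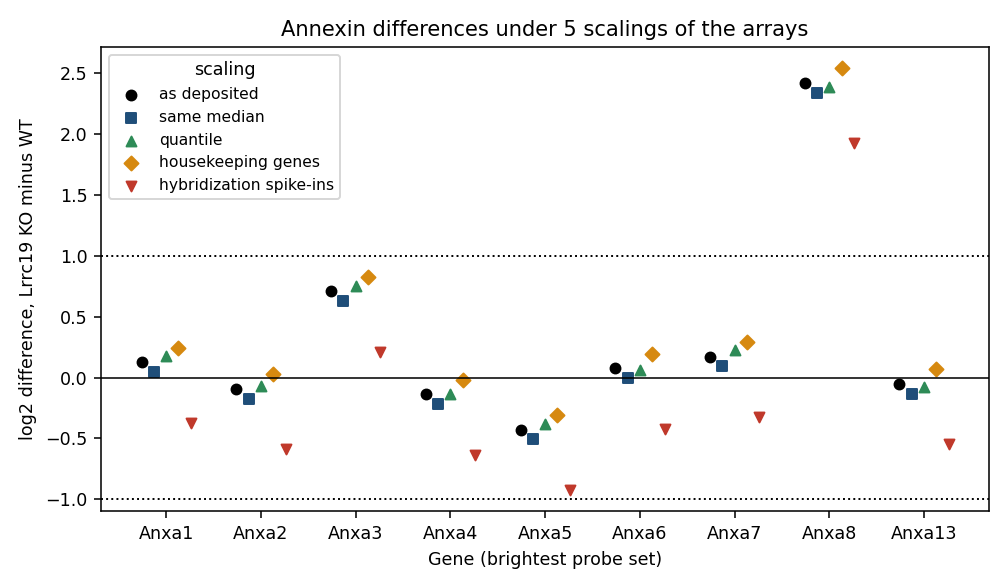
log2 difference (Lrrc19 KO minus WT) of the 9 annexins at the floor with the arrays as deposited and under 4 other scalings (symbols), each point from a single array per pool and so without an error bar. Anxa8 stays above the dotted line of 2-fold under all 5, from 1.92 to 2.54, and no other annexin crosses either line.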

How the data were processed

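RNA pooled evenly from 5 mice of each genotype was hybridized to 1 Affymetrix mouse array per pool. The intensities deposited by the authors are linear, from 1 to 25842, for 45101 probe sets, with a median of 131 on the KO array and 124 on the WT array. RMA is named in the submitters' processing notes, and it usually returns log2 values with equal distributions, so the scaling used is not known, and the log2 of the deposited intensities was taken here. No genome build is given in the sources used here.

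The 64 control probe sets were excluded. Of the others, 34945 had 1 gene symbol, 932 had several and were not used, and 9160 were unnamed. Symbols were updated by gene identifier (RefSeq, GRCm38.p6), which 34754 of the probe sets with 1 symbol matched. For each gene, the probe set brightest by its mean log2 value was used. No test was run, because each genotype had 1 array, which also limits the precision. Every annexin is named, and so are the members of each list past 2-fold. Where a partner or pathway list had none, those with the largest differences are named. For marker lists this was not always done. Defining markers and partners of the annexins were added after their values were seen. The members, lists, and motifs were chosen with earlier results of these data known. Alternatives varied the scaling, the floor, and the probe sets. Python 3.11.15, numpy 2.4.6, and pandas 2.3.3 were used.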

Additional observations from a re-analysis of the deposited data

How the results depend on the processing

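Anxa8 stayed at least 2-fold higher in the Lrrc19 KO pool under all 9 alternatives, with log2 differences from 1.92 to 2.54, and no annexin became lower by 2-fold under any of them. With all probe sets averaged, Anxa8 was at 2.00 and Anxa7 at 0.47. Centring on the hybridization spike-ins, an alternative chosen after the data were seen, changed most. It put the median log2 difference of the annexins at -0.42, Anxa1 at -0.37, and Anxa5 at -0.93, and it gave 3 partner and pathway genes past 2-fold (Zbtb16 higher, Pla2g2a and Pla2g12a lower). Of 75 values for single annexins under the alternatives, 64 moved by less than the robust SD of all genes and 11 by more. Without probe sets that can match several transcripts, Anxa2, Anxa4, and Anxa5 had no value at the floor, and with a floor of 354, the 75th percentile, Anxa6 and Anxa13 had none. With all probe sets averaged, Anxa6 was also under the floor. The differences rest on 1 array per pool, so signals near the floor, such as Anxa8 in WT, are the least certain. No paired analysis was possible because each genotype had 1 array.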
